A study of Mus musculus with 25 samples.

Results

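Metallothioneins and the genes that move or sense zinc were followed in the *soleus* of mice lacking *Dnmt3a* in muscle and of their controls, at rest and after a treadmill bout. The 8 genes were taken from the count table by their symbols, out of 52636 genes, and all 8 passed the filter on low counts: the metallothioneins *Mt1*, *Mt2* and *Mt3*, the zinc sensor *Mtf1*, the zinc exporters *Slc30a1* and *Slc30a2*, and the zinc importers *Slc39a1* and *Slc39a14*. RNA was sequenced from 25 C57BL/6 mice of 12 weeks, 1 library per mouse. All of them carried floxed alleles of *Dnmt3a*, with LoxP sites around exon 19. WT mice had no Cre, and mD3AKO mice also had a Cre transgene under the promoter of muscle creatine kinase, active late in muscle differentiation, so that satellite cells and non-muscle cells of the muscle presumably retain it. The resting groups held 5 WT mice (2 females and 3 males) and 7 mD3AKO mice (3 females and 4 males) and had been on a treadmill that did not exercise them. The exercised groups held 7 WT mice (4 females and 3 males) and 6 mD3AKO mice (3 females and 3 males), which were killed 60 minutes after running for 30 minutes at 16 m/min and a 5% incline.

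Metallothioneins are small proteins rich in cysteine that bind zinc and copper, and their genes respond to metals, glucocorticoids and inflammatory signals. MTF1 is a transcription factor that binds zinc through its zinc fingers and then acts at metal response elements (MREs) in its target genes, metallothioneins and *Slc30a1* among them. Transporters of the SLC30 (ZnT) family move zinc out of the cytosol, either out of the cell or into vesicles, and those of the SLC39 (ZIP) family move it in.

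Libraries held 22671457 to 37431801 counts, and at the median of 32189360 a gene at 1 CPM (counts scaled to the size of the library, here by TMM) rests on 32.2 reads. Expression of *Dnmt3a* checked the labels: its log2 fold change in mD3AKO mice was −1.52 (SE 0.0701, adjusted p = 1.52e-13, edgeR), and at rest WT mice had 115 ± 17.6 CPM (SD, n = 5) where mD3AKO mice had 43.4 ± 6.60 CPM (n = 7). Mouse 15, a resting male mD3AKO mouse, stood apart with the fewest counts, of which 3 genes of ribosomal RNA took 39.5% (7.75% to 13.0% elsewhere), and the values it moved most are also given without it. Genes of slow fibers, which mark the *soleus*, summed to between 27000 and 51370 CPM. Mice 7 to 19 were male and mice 1 to 6 and 20 to 25 female, so sex and the range of mouse numbers cannot be told apart.

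On mm10, the metallothioneins lie side by side on the forward strand of chromosome 8, *Mt3* (ENSMUSG00000031760) at 94152607 to 94154146, *Mt2* (ENSMUSG00000031762) at 94172664 to 94173568 and *Mt1* (ENSMUSG00000031765) at 94179082 to 94180327. On chromosome 4 are *Mtf1* (ENSMUSG00000028890), from 124802104 to 124849800, and *Slc30a2* (ENSMUSG00000028836), from 134343181 to 134354484, both forward. *Slc30a1* (ENSMUSG00000037434) lies on chromosome 1 from 191906767 to 191913247 and *Slc39a1* (ENSMUSG00000052310) on chromosome 3 from 90248172 to 90253612, both on the forward strand, and *Slc39a14* (ENSMUSG00000022094), on the reverse strand, spans 70303469 to 70351425 of chromosome 14.

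The promoters of *Mt1*, *Mt2* and *Slc30a1* are shown because these genes are known targets of MTF1 and yet differed in their response to exercise below. Each runs from 250 bases before to 50 bases after the start that RefSeq gives on GRCm38.p6 (the assembly of mm10), on the forward strand, at chr8:94178839-94179138 for *Mt1*, chr8:94172368-94172667 for *Mt2* and chr1:191906531-191906830 for *Slc30a1*. Capitals mark the MRE core, searched as TGCACNC or TGCGCNC on both strands, so that a core on the reverse strand is printed as its reverse complement.
Mt1: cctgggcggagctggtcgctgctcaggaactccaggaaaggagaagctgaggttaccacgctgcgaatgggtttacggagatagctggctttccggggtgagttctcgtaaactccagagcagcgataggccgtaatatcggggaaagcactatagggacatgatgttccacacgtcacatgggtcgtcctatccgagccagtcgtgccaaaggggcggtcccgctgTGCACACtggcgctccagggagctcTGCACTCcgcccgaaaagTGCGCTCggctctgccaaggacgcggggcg
Mt2: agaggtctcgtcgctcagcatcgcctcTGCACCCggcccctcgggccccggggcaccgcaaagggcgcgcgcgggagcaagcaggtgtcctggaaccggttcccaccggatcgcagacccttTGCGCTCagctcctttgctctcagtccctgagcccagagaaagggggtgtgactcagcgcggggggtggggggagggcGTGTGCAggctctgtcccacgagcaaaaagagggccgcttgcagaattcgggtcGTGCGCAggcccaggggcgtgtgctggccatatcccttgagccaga
Slc30a1: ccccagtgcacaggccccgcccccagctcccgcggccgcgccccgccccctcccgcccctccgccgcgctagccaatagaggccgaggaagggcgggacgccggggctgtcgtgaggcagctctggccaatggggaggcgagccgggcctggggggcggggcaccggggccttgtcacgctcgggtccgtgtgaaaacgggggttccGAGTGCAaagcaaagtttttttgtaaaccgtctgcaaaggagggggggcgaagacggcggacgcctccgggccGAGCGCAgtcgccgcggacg
The *Mt1* window held 3 cores, beginning at −23, 2 and 20 bases from the start (base 0), all on the forward strand. In *Mt2* there were 4 cores, 2 on each strand, spread from −223 to 4, and in *Slc30a1* there were 2, both on the reverse strand, at −43 and 30. Over 32841 mouse promoter windows of the same length, 25.7% held at least 1 core, 7.12% at least 2, 1.97% at least 3 and 0.518% at least 4. The windows shown are rich in G and C (60.7% in *Mt1*, 67.7% in *Mt2* and 73.0% in *Slc30a1*, against a median of 52.7%), and cores were more frequent in such windows. Of 6541 windows of 60% to 70% GC, 3.93% held at least 3 cores and 0.917% at least 4, and of 2804 windows of 70% to 80% GC, 22.9% held at least 2. Promoters were found for 7 of the 8 genes, all but *Slc39a14*: *Mt3* held 1 core, *Slc30a2* 2, and *Mtf1* and *Slc39a1* none. The RefSeq starts are not always those of the gene spans above. The windows of *Mtf1* (from 124802299) and *Slc30a2* (from 134343216) begin after the span starts of 124802104 and 134343181. A second motif, the core of the antioxidant response element (TGACNNNGC, both strands), was present once each in the windows of *Mt2*, *Slc30a1* and *Slc39a1* and in 12.4% of all windows. Only these windows were searched. Matches beyond their ends, or near other starts of the same gene, are not counted, so counts and absences hold for the window alone and not for the whole promoter. A match is a description of the letters in the window, and binding was not measured.

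**Figure D1:**
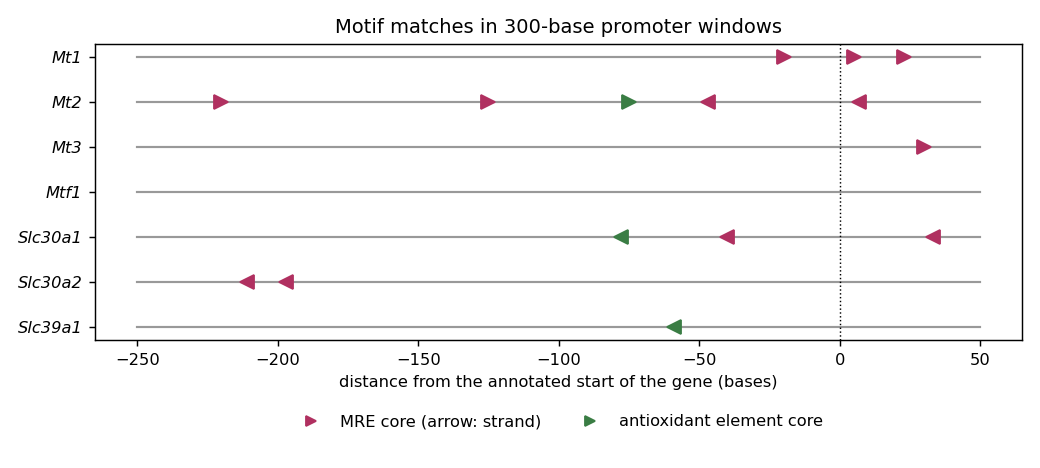
Positions of MRE cores (red) and antioxidant element cores (green) relative to the RefSeq start of 7 genes, in bases, with arrows pointing along the strand of the match. Within the windows searched, *Mt2* and *Mt1* hold 4 and 3 MRE cores, *Slc30a1* and *Slc30a2* 2 each, *Mt3* 1, and *Mtf1* and *Slc39a1* none.

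*Mt1* and *Mt2*, the widely expressed metallothioneins, and *Slc39a14*, an importer of zinc that also carries iron and manganese, rose after exercise. On average over both genotypes, *Mt1* was 3.20-fold, *Mt2* 6.21-fold and *Slc39a14* 1.57-fold higher 60 minutes after the bout. The sensor *Mtf1*, the exporters and *Slc39a1* did not pass the test, and neither did *Mt3*. Thus 3 of the 8 genes were called higher and none lower, against 5.70% of all 16340 genes tested that were called higher and 10.4% called in either direction. In bulk muscle, more RNA per cell and more cells of a type that holds the RNA cannot be told apart.

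In resting WT mice, *Mt1* was at 13.3, 13.3, 22.1, 19.4 and 13.0 CPM in mice 1, 20, 11, 13 and 14. The 7 resting mD3AKO mice ranged from 10.0 to 22.1 CPM with a median of 14.5. After exercise, WT mice were between 39.6 and 61.9 CPM (median 54.0, n = 7) and mD3AKO mice between 32.7 and 85.4 CPM (median 41.9, n = 6). Every exercised mouse was therefore above every resting one, with a gap between 22.1 and 32.7 CPM, and the highest, mouse 19, was an mD3AKO male. Group means were 16.2 ± 4.22 (SD, n = 5) and 52.1 ± 8.05 CPM (n = 7) in WT and 15.3 ± 4.31 (n = 7) and 49.0 ± 20.1 CPM (n = 6) in mD3AKO mice. The log2 fold change of *Mt1* with exercise was 1.68 (SE 0.155, adjusted p = 1.39e-08, by the quasi-likelihood test of edgeR, adjusted by the Benjamini-Hochberg method over all genes tested, as are all adjusted p-values here).

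*Mt2* was low at rest, at 1.22, 0.819, 1.89, 1.74 and 0.741 CPM in WT mice 1, 20, 11, 13 and 14, and at 0.660 to 1.66 CPM (median 1.11, n = 7) in mD3AKO mice. Exercised WT mice reached 2.95 to 9.04 CPM (median 7.88, n = 7) and mD3AKO mice 3.26 to 22.3 CPM (median 5.53, n = 6). Here too the resting and exercised mice did not overlap, the lowest exercised mouse being WT mouse 4. Means were 1.28 ± 0.522 and 6.85 ± 2.42 CPM in WT and 1.06 ± 0.358 and 7.86 ± 7.16 CPM in mD3AKO mice, and the last of these fell to 4.98 ± 1.40 CPM (n = 5) without mouse 19, which alone was at 22.3 CPM. The log2 fold change was 2.64 (SE 0.291, adjusted p = 3e-07), and 2.30 without mouse 19. These levels rest on 11 to 656 reads per mouse.

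*Slc39a14* was at 17.6, 12.9, 19.4, 17.7 and 14.4 CPM in resting WT mice 1, 20, 11, 13 and 14 and at 15.0 to 20.7 CPM (median 17.5, n = 7) in resting mD3AKO mice. After exercise the WT mice had 22.2 to 30.9 CPM (median 23.3, n = 7) and the mD3AKO mice 20.5 to 45.4 CPM (median 25.6, n = 6). Of the 13 exercised mice, 12 were above all resting mice, and the exception, mouse 23 at 20.5 CPM, was below only mouse 7 at 20.7 CPM. Within males and within females the resting and exercised ranges did not overlap, which 2.39% and 1.95% of all genes showed in this direction. The log2 fold change was 0.65 (SE 0.102, adjusted p = 5.8e-05).

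Ranges of resting and exercised mice were apart, with the exercised above, in 125 of the 16340 genes, or 0.765%, and *Mt1* and *Mt2* were among them. Among the 932 genes called higher after exercise and ordered by log2 fold change, *Mt2* was number 19, *Mt1* number 60 and *Slc39a14* number 343.

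**Figure D2:**
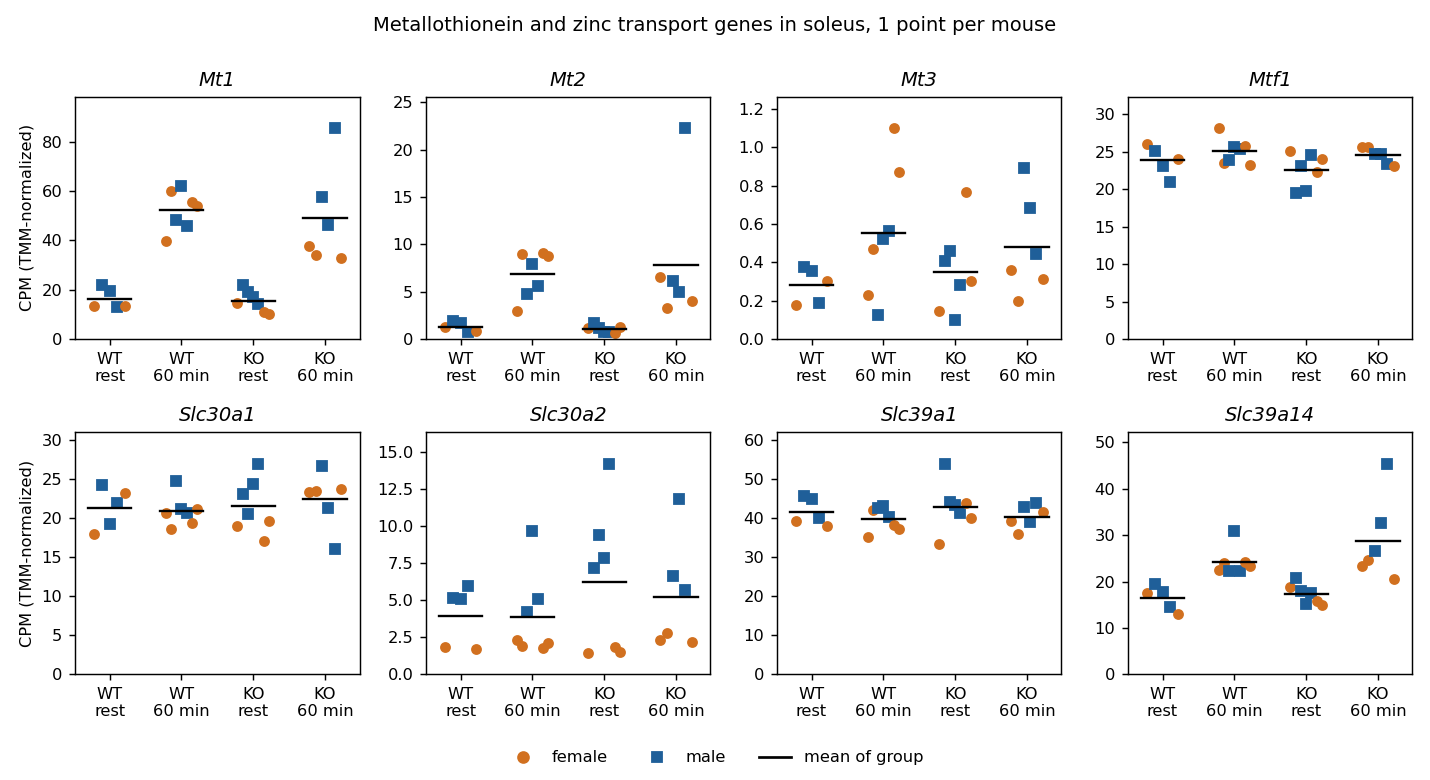
Expression of the 8 genes in CPM (linear axes from 0) in the 4 groups, where WT are mice without Cre and KO are mD3AKO mice; each point is 1 mouse and each bar the mean of its group. *Mt1*, *Mt2* and *Slc39a14* are higher in exercised than in resting mice of both genotypes, and *Slc30a2* separates males (squares) from females (circles).

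The other 5 genes gave small or imprecise differences. *Mtf1* had 23.8 ± 1.93 CPM (SD, n = 5) at rest and 25.1 ± 1.70 CPM (n = 7) after exercise in WT mice, and 22.6 ± 2.26 (n = 7) and 24.5 ± 1.11 CPM (n = 6) in mD3AKO mice. Its log2 fold change was 0.09 (95% interval −0.0024 to 0.19, adjusted p = 0.25). *Slc30a1*, the exporter of the plasma membrane, was at 21.4 ± 2.65 and 20.9 ± 1.95 CPM in WT and 21.6 ± 3.43 (20.7 ± 2.69 without mouse 15, n = 6) and 22.5 ± 3.57 CPM in mD3AKO mice, with a log2 fold change of 0.02 (95% interval −0.14 to 0.18, adjusted p = 0.948). That interval lies below the interval of *Mt1*, from 1.36 to 2.00, and that of *Mt2*, from 2.04 to 3.23. *Slc39a1*, an importer of the plasma membrane, was at 41.6 ± 3.45 and 39.9 ± 3.05 CPM in WT and 43.0 ± 6.13 and 40.5 ± 2.90 CPM in mD3AKO mice, and its log2 fold change was −0.07 (95% interval −0.19 to 0.045, adjusted p = 0.535). *Slc30a2*, which loads zinc into vesicles and is best known from the mammary gland and the pancreas, had a log2 fold change of −0.12 with a wide interval, from −0.92 to 0.68 (adjusted p = 0.929). Most of its spread followed sex, as described below, and its sign with exercise depended on it: with sex as an additive term it was 0.16 (adjusted p = 0.641), and without mouse 15 it was 0.04.

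*Mt3*, the metallothionein known mainly from brain, was low, with 3 to 40 reads per mouse. It was at 0.279 ± 0.0931 CPM (n = 5) and 0.554 ± 0.340 CPM (n = 7) in WT and at 0.352 ± 0.224 (n = 7) and 0.482 ± 0.259 CPM (n = 6) in mD3AKO mice. Of the 13 exercised mice, 10 were above the median of the resting mice, and the ranges overlapped, from 0.0985 to 0.766 CPM at rest and from 0.127 to 1.10 CPM after exercise. The log2 fold change was 0.70 (SE 0.320, adjusted p = 0.191), so no change of *Mt3* was called.

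The next question was whether loss of *Dnmt3a* changed these levels or their response. No gene of the 8 was called between genotypes, against 44 (0.269%) of all genes. The log2 fold change of mD3AKO against WT mice was −0.08 for *Mt1* (95% interval −0.39 to 0.22), −0.02 for *Mt2* (−0.59 to 0.55), 0.16 for *Slc39a14* (−0.047 to 0.37) and 0.52 for *Slc30a2* (−0.28 to 1.32), with edgeR adjusted p-values of 1.0, 1.0, 0.919 and 0.964. Values of the other 4 genes lay between −0.06 and 0.07, and unadjusted p-values were at least 0.123 over the 8 genes in this fit, which has no term for sex. With sex as a term, *Slc30a2* was at 0.39 (unadjusted p = 0.0235, adjusted p = 0.562), and with 8 groups of sex, genotype and exercise at 0.32 (unadjusted p = 0.0442, adjusted p = 0.744). Leaving out 1 mouse moved the value of *Slc30a2* to between 0.31 (without mouse 17) and 0.73 (without mouse 16), with 0.36 without mouse 15 (adjusted p = 0.961). That of *Slc39a14* moved to 0.07 without mouse 19 and otherwise stayed between 0.12 and 0.20. That of *Mt1* ranged from −0.20 without mouse 19 to −0.02 without mouse 11, and that of *Mt2* from −0.35 to 0.068. None of these was called. DESeq2 called 0 of the 8 as well.

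The response to exercise was present in each genotype. In WT mice the log2 fold change was 1.69 (SE 0.228, adjusted p = 2.29e-05) for *Mt1*, 2.42 (SE 0.425, adjusted p = 0.000663) for *Mt2* and 0.56 (SE 0.149, adjusted p = 0.0305) for *Slc39a14*, and 2.16% of all genes were called higher. In mD3AKO mice it was 1.67 (SE 0.209, adjusted p = 4.92e-06), 2.85 (SE 0.392, adjusted p = 2.05e-05) and 0.74 (SE 0.139, adjusted p = 0.00103) in the same order, with 3.7% of all genes called higher. The difference of the responses, mD3AKO minus WT, was −0.01 (95% interval −0.63 to 0.61) for *Mt1*, 0.43 (−0.73 to 1.59) for *Mt2* and 0.18 (−0.24 to 0.60) for *Slc39a14*. The value for *Mt2* was −0.22 without mouse 19, and that for *Slc39a14* was 0.0021. That for *Mt1* ranged from −0.25 to 0.093 with 1 mouse left out, and so took both signs. None of the 8 interactions was called by edgeR, with unadjusted p-values of at least 0.368, and over all genes 0 were called (0.0%), while 403 had an unadjusted p under 0.05, and DESeq2 called 0 too.

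**Figure D3:**
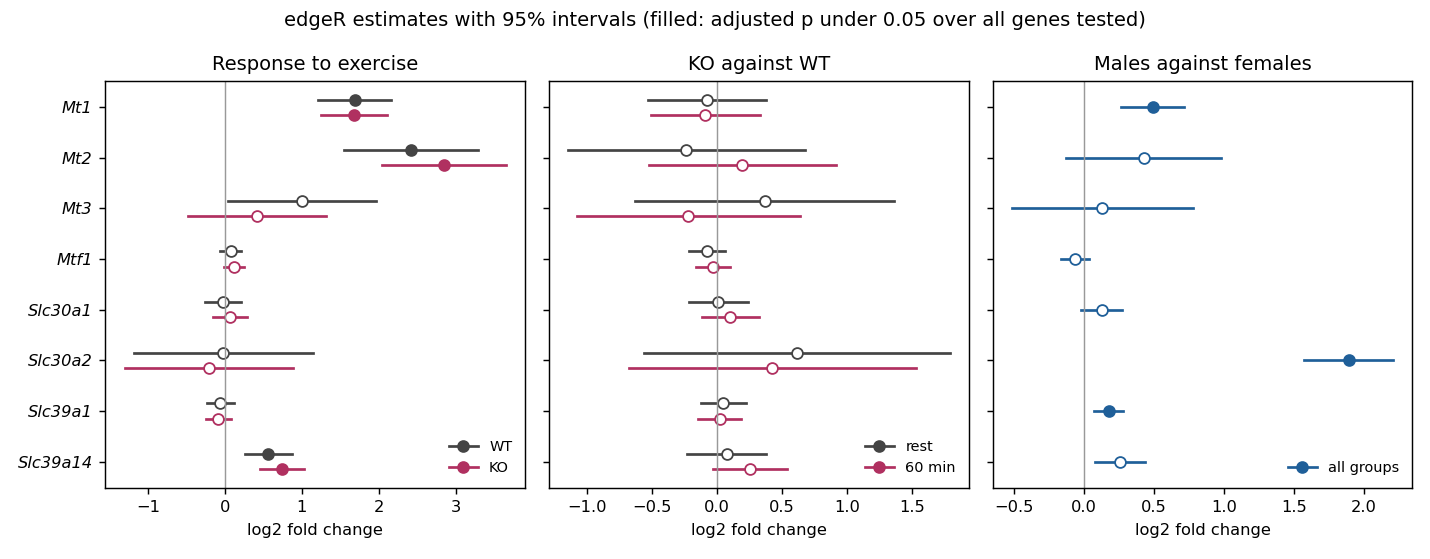
Log2 fold changes of the 8 genes with 95% intervals from edgeR: response to exercise in WT and mD3AKO (KO) mice (left), mD3AKO against WT at rest and 60 minutes after exercise (middle), and males against females (right), each panel with its own axis. Filled points passed an adjusted p of 0.05 over all genes tested, and the intervals of WT and mD3AKO responses overlap for every gene.

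Within one sex, 3 patterns by genotype were noticed after the values were seen. In exercised females, *Mt1* was at 37.7, 34.0 and 32.7 CPM in mD3AKO mice 3, 6 and 23, below the WT females 4, 5, 22 and 25 at 39.6, 60.1, 55.5 and 54.0 CPM. Exercised males had 57.7, 46.1 and 85.4 CPM in mD3AKO and 48.1, 61.9 and 45.7 CPM in WT mice, and without mouse 19, the highest, both averaged 51.9 CPM. In females alone, the genotype effect of *Mt1* over rest and exercise was −0.39 (unadjusted p = 0.0059, adjusted p = 1.0) and in males alone 0.14 (adjusted p = 0.999), which fell to −0.0036 without mouse 19. Of all genes, 2.06% showed exercised mD3AKO females all below exercised WT females. In resting males, *Slc30a2* was at 7.15, 9.41, 7.88 and 14.2 CPM in mD3AKO mice 7, 8, 12 and 15, above the WT males 11, 13 and 14 at 5.13, 5.11 and 5.96 CPM, a separation in this direction that 2.13% of all genes showed. Without mouse 15, which moved the mD3AKO mean from 9.66 ± 3.17 (n = 4) to 8.14 CPM (7.15 to 9.41 CPM, n = 3) against 5.40 ± 0.486 CPM in WT males (n = 3), the ranges were still apart, and exercised males overlapped. In males alone the genotype effect of *Slc30a2* was 0.58 (edgeR, unadjusted p = 0.0267, adjusted p = 0.845). It was 0.47 in males without mouse 15 (unadjusted p = 0.0511, adjusted p = 0.895) and 0.05 in females alone. The third pattern was *Slc30a1* in exercised females, at 23.4, 23.5 and 23.7 CPM in mD3AKO mice 3, 6 and 23 and lower, at 18.6 to 21.2 CPM, in the 4 WT females, which 2.23% of all genes showed in this direction. In females alone the interaction of genotype and exercise for *Slc30a1* was 0.39 (edgeR, unadjusted p = 0.019, adjusted p = 1.0). None of them passed adjustment over all genes, and a difference between the sexes in the effect of genotype was not tested.

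*Mt2* took a larger share of the metallothionein reads after exercise. As a percent of the summed counts of *Mt1* and *Mt2*, which does not depend on the size of the library, it was 6.87 ± 1.92% (SD, n = 12) at rest and 11.8 ± 3.55% (SD, n = 13) after exercise, a difference of 4.94 points (2-sided permutation test of 100000 resamples, p = 0.0001). Resting mice ranged from 4.28% to 11.4% and exercised mice from 6.94% to 20.7%, so that the ranges overlapped. The share rose from 7.15 ± 1.43% to 11.3 ± 2.64% in WT mice (n = 5 and 7, exact permutation p = 0.0177) and from 6.67 ± 2.30% to 12.4 ± 4.59% in mD3AKO mice (n = 7 and 6, exact permutation p = 0.00816). In males alone the difference was 5.56 points (n = 7 and 6, exact permutation p = 0.00117) and in females alone 4.10 points (n = 5 and 7, exact permutation p = 0.0354). The highest share, 20.7% with an exact binomial 95% interval from 19.3% to 22.1% that covers counting error only, was that of mouse 19, and the difference without that mouse was 4.20 points.

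The counted share may understate *Mt2*, since 432 of its 588 exon bases (73.5%) also lie in exons of *Gm45774* on the opposite strand, to which 205 reads were counted over all mice against 3508 for *Mt2*. Of genes of at least 200 exon bases that lie wholly within the exons of 1 other gene with at least 1000 counts, none held a read, neither of 141 within a gene on the opposite strand nor of 35 within one on the same strand, as in counting that ignores the strand and leaves out reads that fit more than 1 gene. Where several genes of the same strand together covered a gene, 41 of 84 held reads, and of 4 such genes on the opposite strand 0 did. Read pairs that lie wholly over the shared bases of *Mt2* would then be missing in every mouse alike, while pairs that reach outside them may have been counted. A smaller part of *Mtf1* (8.09% of its exon bases) and *Slc30a1* (8.92%) is shared with an opposite gene, and none of the other 5 genes. Of the 31-base words in their GENCODE release 21 transcripts, on either strand, *Slc39a1* shares 646 of 2333 with transcripts of 276 other genes and *Slc39a14* 70 of 10606 with those of 293, while *Mt1*, *Mt3* and *Slc30a2* share none. How many reads this cost was not tested, so the levels of *Slc39a1* and *Slc39a14* per kb are uncertain to that extent.

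**Figure D4:**
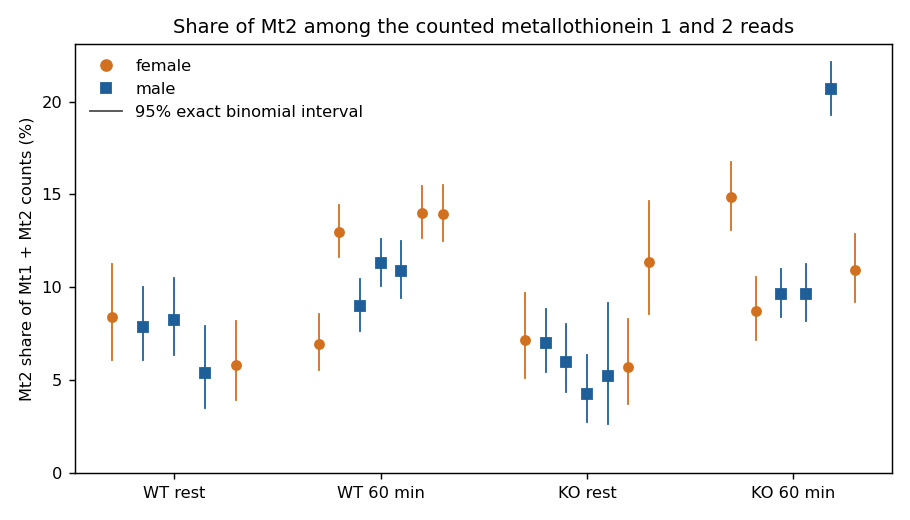
*Mt2* share of the counts of *Mt1* and *Mt2* (percent, axis from 0) in each mouse, by group (KO: mD3AKO), with exact binomial 95% intervals for counting error. Shares are mostly under 9% at rest and mostly above it after exercise, with mouse 19 highest at 20.7%.

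To compare levels between genes, CPM were divided by the exon length in kilobases. The length used for *Mt1*, 1246 bases, covers its whole span, so any intron counts as exon and its level may be understated. At rest the order was *Slc39a1* (17.9 ± 2.13 CPM per kb, SD, n = 12), *Mt1* (12.6 ± 3.29), *Slc30a1* (4.10 ± 0.572), *Mtf1* (2.60 ± 0.240), *Mt2* (1.97 ± 0.725), *Slc39a14* (1.60 ± 0.215), *Slc30a2* (1.48 ± 1.11) and *Mt3* (0.302 ± 0.167). The first 3 were each above the next gene in all 12 mice, while *Mtf1*, *Mt2* and *Slc39a14* were above the next gene in 9, 8 and 7 mice, so that neighbours from *Mtf1* to *Slc30a2* were not apart beyond their spread. The place of *Slc30a2* differed by sex. It was at 2.20 ± 0.900 CPM per kb in resting males (n = 7), beside 2.13 for *Mt2* and 1.66 for *Slc39a14*, and at 0.471 ± 0.0564 in resting females (n = 5), beside 1.74 and 1.52. Without mouse 15 the males had 1.90 for *Slc30a2* and 2.27 for *Mt2*. After exercise *Mt1* led, at 40.7 ± 11.5 CPM per kb (n = 13), above *Slc39a1* (17.0 ± 1.21) in all 13 mice, and *Mt2* became number 3 at 12.4 ± 8.44, above *Slc30a1* (4.13 ± 0.534) in all 13. Over the 156 exon bases of *Mt2* outside *Gm45774*, a length chosen after the count table was examined, its level was 7.40 ± 2.73 CPM per kb at rest and 46.9 ± 31.8 after exercise. Since pairs that reach into the shared bases may be counted, this length can overstate the level. With it, and with the whole span kept for *Mt1*, *Mt2* would be number 3 at rest. After exercise *Mt2* would be, on average, above *Mt1*, by less than the spread between mice, and this order depends on the lengths chosen.

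Sex was the other label that went with these genes. Of the 8 genes, 3 were called higher in males than in females and none lower, against 5.36% of the 17389 genes tested in groups of sex, genotype and exercise that were called higher in males. Calls with sex in either direction numbered 1418, and 834 without mouse 20. *Slc30a2* differed most. The 13 males ranged from 4.17 to 14.2 CPM (median 6.60) and the 12 females from 1.47 to 2.79 CPM (median 1.89). No male was as low as the highest female, mouse 6, a separation that 31 genes (0.19%) showed in this direction. Means were 7.52 ± 2.98 CPM (SD) in males and 1.99 ± 0.386 CPM in females, and 6.97 ± 2.30 CPM in the 12 males without mouse 15, the highest. The log2 difference was 1.89 (SE 0.154, adjusted p = 3.92e-08, edgeR), and 1.83 without mouse 15. Among the genes higher in males *Slc30a2* was number 16 of 932 by log2 difference.

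*Mt1* was also higher in males, with a log2 difference of 0.49 (SE 0.109, adjusted p = 0.00691). At rest 5 of 7 males were above all females, at 18.1 ± 3.62 CPM (SD, n = 7) against 12.4 ± 1.87 CPM (n = 5), and after exercise the males had 57.5 ± 15.2 CPM (n = 6) and the females 44.8 ± 11.4 CPM (n = 7), with overlap in both states. Of the exercised mice, mD3AKO males were at 63.1 ± 20.2 CPM and mD3AKO females at 34.8 ± 2.58 CPM (n = 3 each). Exercised WT males had 51.9 ± 8.73 CPM (n = 3) and WT females 52.3 ± 8.87 CPM (n = 4). Whether the gap between the sexes differed by genotype was not tested. Without mouse 19 the mD3AKO males averaged 51.9 CPM, and the log2 difference between the sexes was 0.42 and was still called. *Slc39a1* passed narrowly, at 0.17 (SE 0.0496, adjusted p = 0.0322), and lost its call when any 1 of 14 mice was left out, with adjusted p-values up to 0.0951. *Slc39a14* missed the threshold at 0.26 (adjusted p = 0.0706). It passed without mouse 1, 2 or 10. *Mt2*, at 0.42 (adjusted p = 0.375), *Mt3*, *Mtf1* and *Slc30a1* were not called. No difference between the sexes in the response to exercise was called by edgeR for any of the 8 genes, with unadjusted p-values of at least 0.141, against 8 of all genes (0.046%) called. That count of 8 moved to between 3 and 5 without mouse 1, 2, 3, 6 or 11, to 13 without mouse 22 and to 17 without mouse 23. For *Slc30a2* the response by edgeR was 0.39 in females alone (adjusted p = 0.223) and −0.017 in males alone (adjusted p = 0.986). Of the 7 exercised females, 6 were above all resting ones. How many of all genes did the same was not counted, and 1.95% had all exercised females above all resting ones.

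Other differences ran in parallel with sex. Of the fixed markers, 5 of 7 slow fiber genes were called lower and 4 of 6 fast fiber genes higher in males. Slow fiber genes summed to 27000 to 34620 CPM in males and 32250 to 51370 CPM in females, and fast fiber genes to 23410 to 37010 CPM and 17360 to 29530 CPM. No gene of the lists for fibroblasts, endothelium, immune cells, adipocytes, Schwann cells or blood was called with sex by edgeR, though unadjusted p-values were under 0.05 for 4 of 4 Schwann cell, 3 of 5 blood and 2 of 5 immune markers, and 1 of 4 satellite cell markers was called lower in males. Schwann cell markers summed to 27.5 to 185 CPM in males and 30.2 to 422 CPM in females. The part of fiber composition in the differences of *Slc30a2*, *Mt1* and *Slc39a1* was not tested.

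With exercise, none of the markers of slow or fast fibers, fibroblasts, immune cells, adipocytes, Schwann cells or blood was called by edgeR, with unadjusted p-values under 0.05 for 2 of 5 fibroblast markers and for 0 in the other lists. Markers of endothelium were lower in 2 of 5, with sums of 308 to 410 CPM in exercised and 355 to 491 CPM in resting mice. Of 4 satellite cell markers, *Pax7* and *Myf5*, transcription factors of these cells, were called lower, at −0.45 and −0.46, *Sdc4*, a syndecan also made by other cells, was called higher at 0.93, and *Calcr* was at 0.08 and not called. With *Sdc4* among them, their sum was 59.3 to 96.0 CPM at rest and 91.2 to 162 CPM after exercise. No list of cell type markers had a gene at 0 counts in all mice. Their part in the rise of *Mt1*, *Mt2* and *Slc39a14* was not tested. Between genotypes, edgeR called 1 of 4 satellite cell markers, *Pax7*, higher in mD3AKO mice and no marker of the other lists. Adipocyte markers had a median log2 fold change of −0.68 with genotype, with 1 of 5 at an unadjusted p under 0.05. After exercise they lay between −1.29 and −0.34 in mD3AKO against WT mice, none called. The part of these markers in the patterns by genotype was not tested.

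**Figure D5:**
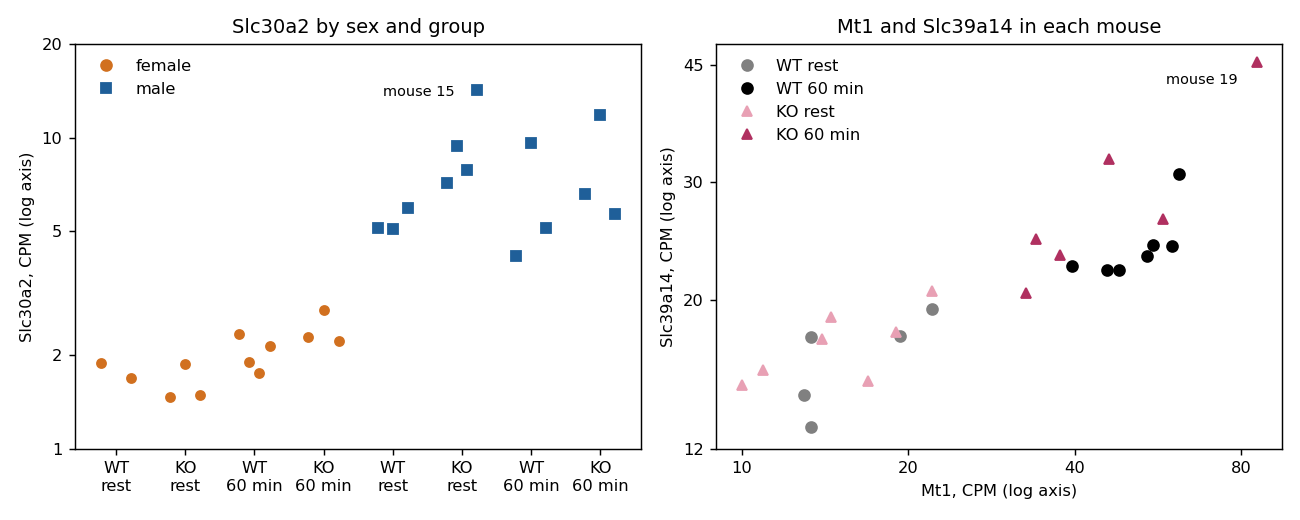
Left, *Slc30a2* in CPM (log axis) by sex and group (KO: mD3AKO), 1 point per mouse, with all males between 4.17 and 14.2 CPM and all females between 1.47 and 2.79 CPM. Right, *Slc39a14* against *Mt1* in CPM (log axes) in each of the 25 mice, with exercised mice in the upper right and mouse 19 highest in both.

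Of 21 other metallothionein, ZnT and ZIP genes, 16 were tested, and 1 of them was called with exercise, against 10.4% of all genes. It was *Slc30a5*, a ZnT of the early secretory pathway, at a log2 fold change of 0.19 (SE 0.0386, adjusted p = 0.00128). Its value was 0.21 in WT mice (adjusted p = 0.0369) and 0.17 in mD3AKO mice (adjusted p = 0.0532), and the difference between them was −0.03 (95% interval −0.19 to 0.13). The median log2 fold change over the 16 genes was 0.03, against 0.37 over the 8 described here and −0.00088 over all genes. Both sets were chosen with earlier results of these data known, so the gap between their medians is a description and not a test. Of 10 genes of copper handling, 8 were tested and none was called with exercise by edgeR (1 at an unadjusted p under 0.05), with a median of 0.01. None of the genes of either list was called with genotype by edgeR (1 of each list at an unadjusted p under 0.05) or with sex (3 of 16 and 2 of 8), against 0.269% and 8.15% of all genes.

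Mice that were high in *Mt1* and *Mt2* were also high in *Slc39a14*. Over the 25 mice, Spearman's rho between *Slc39a14* and the mean log2 CPM of *Mt1* and *Mt2* was 0.89, the sixth highest value among 12685 genes, and the mice share the split into resting and exercised. The most similar other genes were *Nfkbia* (0.93), *Cebpd* (0.92), *Map3k6* (0.90), *Lnx1* (0.90) and *Lrrc8a* (0.90). *Nfkbia* encodes an inhibitor of NF-κB and *Cebpd* a transcription factor of the C/EBP family. On residuals from the 4 group means, which remove that split but keep sex and sample handling, *Slc39a14* was at 0.69 and number 8, and *Slc39a1* at 0.57 and number 134. *Pttg1ip* (0.76), *Srsf9* (0.75), *Pitpnm1* (0.73) and *Ptger4* (0.72) were near the top of that order. *Mtf1* (−0.20), *Slc30a1* (−0.22) and *Slc30a2* (0.22) showed weak relations there. These values describe the mice measured and carry no test. Mouse 19 was the highest of the 13 exercised mice in *Mt1*, *Mt2*, *Slc39a14* and *Slc39a1* and the lowest in *Slc30a1*.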

How the data were processed

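RNA-seq of *soleus* from 25 mice was analysed. Total RNA was depleted of ribosomal RNA, made into strand-specific libraries, read as 75-bp paired ends, aligned to mm10 and counted on GENCODE release 15. The submitters' processing notes name FastQC 0.11.5, STAR 2.5.3a and featureCounts 1.5.3. The deposited values are raw counts per gene and library, with no normalization or filter by the authors, beside a gene length used for CPM per kb. The strand setting of the counting is not given in the sources used here. Symbols came from GENCODE release 21 (52403 of 52636 genes).

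Genes were kept with filterByExpr (minimum count 10, minimum total 15) and tested with edgeR 4.0.16 in R 4.3.3 on TMM-normalized counts, with 1 mean per group and Benjamini-Hochberg adjustment at 0.05. Sex was tested with 8 groups. Standard errors are the log2 fold change over the square root of F, and intervals use the t distribution. On simulated counts, 176 of 200 changed genes were recovered among 180 called for the exercise comparison over 16340 genes. Of 67 replicate pairs, 0 were identical. The labels give mouse numbers, so that each replicate is 1 animal. Named were the 8 genes, called genes of the zinc and copper lists, and the 5 genes most like *Mt1* and *Mt2* on each scale, of which 1 is not reported here. The members and lists were chosen with earlier results of these data known. Alternatives were DESeq2 1.42.0, its size factors, no filter, a robust fit, terms for sex or ranges of mouse numbers, each sex alone and leaving out each mouse.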

Additional observations from a re-analysis of the deposited data

Results flagged for a closer look

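The 8 genes in 4 groups gave 32 sets of values, and in 4 of them the highest mouse stood farther from the rest than Dixon's test at the 95% level allows, where chance gives about 5% of sets. *Mt2* in exercised mD3AKO mice was at 22.3 CPM in mouse 19, with the next mouse at 6.58 CPM. *Slc30a1* in exercised WT mice was at 24.8 CPM in mouse 9, with the next at 21.3 CPM, and mouse 9 was one of 3 males in that group. *Slc30a2* in exercised WT mice was at 9.63 CPM in mouse 16, with the next at 5.11 CPM, and the group mixes males and females. *Slc39a14* in the same group was at 30.9 CPM in mouse 16, with the next at 24.2 CPM.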

How the results depend on the processing

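Of the log2 fold changes of the 8 genes under the alternatives, 1144 kept their direction and their side of the threshold, 14 lost and 3 gained a call, and 57 changed sign, none of them called. With exercise, *Mt1*, *Mt2* and *Slc39a14* were called under every alternative, at 1.56 to 1.75, 2.30 to 2.72 and 0.56 to 0.69 with 1 mouse left out and at 1.65 to 1.76, 2.52 to 2.68 and 0.54 to 0.75 otherwise. *Slc30a2* with exercise turned to 0.16 with sex as a term, 0.19 with 8 groups, 0.14 with ranges of mouse numbers as a term and 0.39 in females, and *Slc30a1* to −0.069 in males. With genotype, *Mt1* was 0.14 and *Mt2* 0.26 in males and *Mt3* −0.23 in females. Interactions that turned were 0.28 for *Mt1*, 0.65 for *Mt3* and −0.18 for *Slc30a1* in males, and −0.69 for *Mt2*, 0.41 for *Slc30a2*, 0.014 for *Slc39a1* and −0.15 for *Slc39a14* in females. With 1 mouse left out, signs turned for *Slc30a1* (−0.0094 to 0.053) and *Slc30a2* (−0.33 to 0.038) with exercise, *Mt2* (−0.35 to 0.068) and *Mt3* (−0.093 to 0.20) with genotype, *Mt1* (−0.25 to 0.093), *Mt2* (−0.22 to 0.59), *Slc30a2* (−0.60 to 0.23) and *Slc39a1* (−0.077 to 0.032) in the interaction, and *Mt2* (−0.36 to 0.32) and *Mt3* (−0.19 to 0.43) in the interaction of sex and exercise. Over all genes, calls with exercise fell from 1699 to 966 in males and 512 in females, where fewer mice were fitted. Calls with genotype moved from 44 to 72 with sex as a term, 97 with ranges of mouse numbers, 23 in males, 6 in females and 81 with DESeq2, none of them among the 8 genes. With 1 mouse left out, calls with sex ranged from 834 to 1740 (1418 with all mice, 834 without mouse 20), among the 8 genes from 2 to 4, and calls in the interaction of sex and exercise from 3 to 17 (8 with all mice). Apart from the smaller number of mice, the cause was not tested. The *Mt2* level per kb moved from 1.97 to 7.40 at rest and from 12.4 to 46.9 after exercise when only the exon bases outside *Gm45774* were counted as length. *Mt3* rested on 3 to 40 reads per mouse and resting *Mt2* on 11 to 65. Leaving mouse 15 or 19 out of the males was chosen after seeing the data. No paired analysis was possible because the mouse numbers are unique and the groups share none.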
